A study of Arabidopsis thaliana with 12 samples.

Results

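The comparison described here is that of the Arabidopsis thaliana mutant hai1-2 with its wild type Col-0 at low water potential. Its members are 6 of the 12 arrays of the series, chosen by their titles: 3 of hai1-2 and 3 of Col-0, all at -1.2 MPa. The mutant carries a lesion in HAI1 (At5g59220) in the Col-0 background and is a single allele. Plants of both genotypes were grown on sugar-free agar plates, were moved when 7 days old, and were harvested whole 96 h later. Stressed plates were brought to -1.2 MPa with polyethylene glycol of molecular weight 8000, which withdraws water from the plant without entering its cells, and control plates of both genotypes were at -0.25 MPa. Each of 3 independent experiments gave 1 stressed array of each genotype, so the arrays form 3 pairs. RNA was hybridised to one-colour Affymetrix arrays of 22810 probe sets, and each deposited value is a linear signal intensity.

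HAI1 is a clade A type 2C protein phosphatase. Phosphatases of this clade hold SnRK2 kinases inactive, and receptors that have bound abscisic acid (ABA), the hormone of water shortage, inhibit the phosphatases and so release the kinases. Released kinases phosphorylate transcription factors that switch on protective genes, among them those of late embryogenesis abundant (LEA) proteins. The comparison asks which transcripts of drought-stressed seedlings depend on this phosphatase.

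On the 6 stressed arrays median signal lay between 202.7 and 212.45. Summed over 3 root markers, signal ran from 16036 to 23401 for Col-0 and from 20978 to 23210 for hai1-2, and over 15 nuclear photosynthesis genes it was 60455 to 67905 and 55248 to 61629. The root sum was almost all PYK10, with means of 18770 in Col-0 and 21354 in hai1-2. EXPA7 had 335 and 351, and EXPA18 344 and 302. The log2 differences of the 3 root markers were 0.20, -0.01 and -0.13, and none was called (limma). The single seed marker with a named probe set lay at 30.5 to 53.8 and 40.9 to 54.6, and the single flower and pollen marker, which did not pass the filter on low signals, at 2.3 to 14.7 and 3 to 4.2. Whole seedlings were harvested, so a change in the share of a tissue and a change of RNA per cell cannot be told apart. The ratio of 5′ to 3′ signal of GAPDH, a sign of RNA integrity, was 0.869 ± 0.101 in Col-0 and 1.11 ± 0.0585 in hai1-2 (SD, n = 3) on the newer of the array's control probe sets, with no overlap (exact permutation test, two-sided, p = 0.1, the smallest p that 3 against 3 can give). On the older GAPDH probe sets the order was the opposite, at 0.974 ± 0.249 and 0.734 ± 0.0872, with overlap (exact p = 0.3). The 5′ to 3′ ratios of ubiquitin and actin overlapped on both sets of probes. The part of RNA integrity in the results below was not tested.

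Of 17059 probe sets tested, 11 (0.0645%) differed between the genotypes at -1.2 MPa at an adjusted p under 0.05 (limma with the experiment as a block, Benjamini-Hochberg adjustment over all probe sets tested). In hai1-2, 2 were higher (0.0117%) and 9 lower (0.0528%). The annotation gives a single gene for 7 of them: the alpha-amylase AMY1 was higher, and the orphan gene QQS, a peroxidase and 4 genes of cell wall enzymes or their inhibitors were lower. At an unadjusted p under 0.05 there were 1510 probe sets (8.85%), of which 634 were higher (3.72%) and 876 lower (5.14%). The effect was small for most of the array: the SD of the log2 difference over all probe sets tested was 0.252 and its median -0.01, and 31 probe sets were at least 2-fold higher (0.182%) and 30 at least 2-fold lower (0.176%). Across the probe sets the differences of any 2 experiments correlated at a Pearson r of 0.160 to 0.234 and a Spearman rho of 0.145 to 0.217. This is a correlation across 17059 probe sets of the same 6 arrays, which are not independent replicates.

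**Figure D1:**
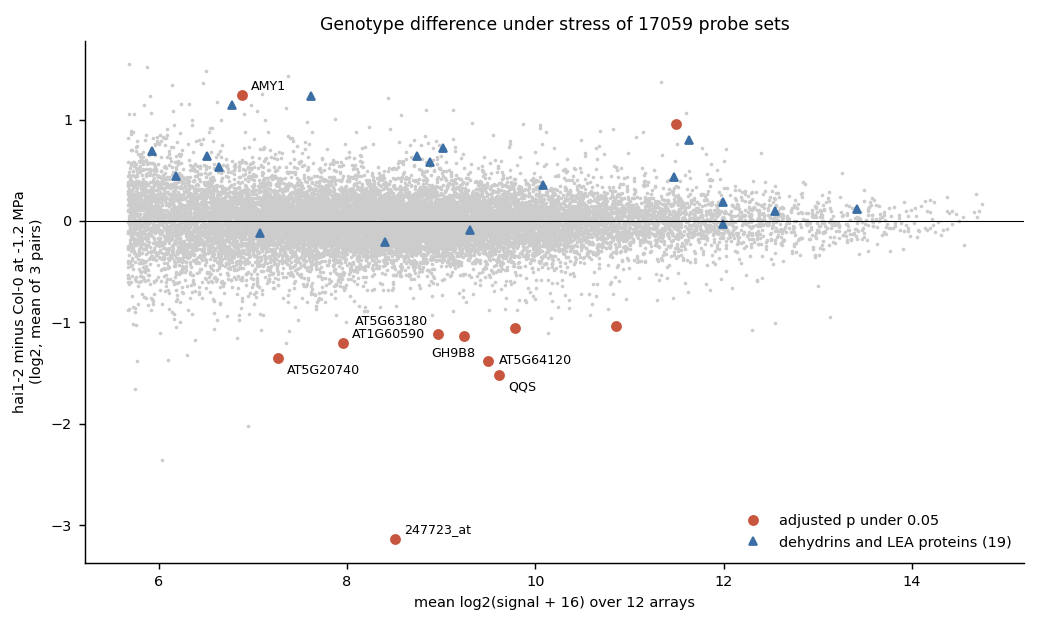
Difference between stressed hai1-2 and stressed Col-0 (vertical axis, log2, mean of 3 pairs) against the mean level over 12 arrays (horizontal axis, log2 of signal + 16) for 17059 probe sets (grey). The 11 probe sets at an adjusted p under 0.05 are red, 19 dehydrin and LEA genes are blue triangles, and the one farthest from 0 lies at -3.13.

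The largest difference belonged to a probe set that the annotation used here leaves without a gene. The annotation pairs no probe set with HAI1, so the genotype labels were not checked against the transcript of the mutated gene. Whether the most changed probe set measures HAI1 itself was not tested, so it cannot be taken for a downstream target. At -1.2 MPa the signal of this probe set was 2602.7, 3125.0 and 3173.5 in Col-0 and 373.3, 256.3 and 349.2 in hai1-2 (experiments 1, 2 and 3). Every hai1-2 array lay far below every Col-0 array. The difference was -3.13 ± 0.17 on the log2 scale (mean of 3 pairs with the moderated SE of limma, adjusted p = 3.16e-06). Here and below, the SE of a difference comes from the fit to stressed and control arrays together. It is the same at both water potentials and does not give the spread among the 3 stressed pairs. On control plates the same probe set had 130.2, 164.1 and 94.5 in Col-0 and 110.9, 110.1 and 97.1 in hai1-2, which overlapped, and the difference there was -0.23. The genotype difference at -1.2 MPa exceeded that at -0.25 MPa by -2.91 (limma interaction, adjusted p = 5.21e-04). It was the only probe set called for that interaction (0.00586% of those tested), while 1259 (7.38%) had an unadjusted p under 0.05.

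Genes of starch and sugar metabolism gave one change in each direction. AMY1 encodes an alpha-amylase, an enzyme that cleaves starch chains internally. Its signal at -1.2 MPa was 178.4, 176.2 and 105.4 in Col-0 and 470.8, 493.5 and 224.9 in hai1-2. All hai1-2 arrays were above all Col-0 arrays, and experiment 3 was the lowest in both genotypes. AMY1 was higher in hai1-2 by 1.24 ± 0.19 on the log2 scale (limma, adjusted p = 0.037). On control plates it was dim, at 32.8 ± 6.23 for Col-0 and 47.2 ± 9.21 for hai1-2 (SD, n = 3).

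QQS, an orphan gene found only in Arabidopsis thaliana whose silencing raises leaf starch, had signals of 1141.3, 921.2 and 1120.5 in Col-0 and 362.6, 280.3 and 454.5 in hai1-2 at -1.2 MPa. The groups were well apart in every experiment. QQS was lower in hai1-2 by -1.52 ± 0.18 on the log2 scale (limma, adjusted p = 0.0127). Its difference on control plates, which share no array with the stressed comparison, was -1.57 ± 0.18 (adjusted p = 0.0195), with 1614.4, 1125.0 and 2493.2 against 550.9, 534.0 and 561.5. The 2 differences of QQS differed by 0.05 (limma interaction, adjusted p = 0.976).

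The other genes that were lower encode enzymes that act in the cell wall and the apoplast, the space outside the cell membrane, or, for AT5G20740, a member of an inhibitor family of such enzymes. AT5G64120 encodes a class III peroxidase, a secreted enzyme that can oxidise wall components. Its signal was 1236.7, 3105.3 and 1019.0 in stressed Col-0 and 431.0, 950.5 and 516.1 in stressed hai1-2. Experiment 2 was the highest in both genotypes, and no hai1-2 array reached the lowest Col-0 array. The difference was -1.38 ± 0.17 on the log2 scale (limma, adjusted p = 0.0127).

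GH9B8 is an endoglucanase of glycosyl hydrolase family GH9, enzymes that cleave glucan chains such as cellulose. It gave 776.8, 596.1 and 714.6 in stressed Col-0 and 317.5, 354.0 and 257.7 in stressed hai1-2. The groups did not overlap, and the difference was -1.13 ± 0.17 on the log2 scale (limma, adjusted p = 0.037). Pectin, the gel-forming polysaccharide of the primary wall, is cut by polygalacturonases and pectate lyases, and both kinds of enzyme share the pectin lyase fold. AT1G60590, a gene of that superfamily, had signals of 249.0, 142.6 and 157.1 in Col-0 and 72.9, 54.9 and 78.3 in hai1-2, a difference of -1.20 ± 0.19 (adjusted p = 0.037). AT5G63180, also of that superfamily, had 247.1, 192.8 and 196.4 in Col-0 and 80.8, 73.4 and 116.9 in hai1-2, a difference of -1.11 ± 0.16 (adjusted p = 0.0364). In both genes every hai1-2 array was below every Col-0 array.

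AT5G20740 belongs to the family of invertase and pectin methylesterase inhibitors, small secreted proteins that bind and block those enzymes. Its signal was 152.0, 87.9 and 122.5 in stressed Col-0 and 34.6, 25.6 and 53.6 in stressed hai1-2. The groups did not overlap, and the difference was -1.35 ± 0.20 on the log2 scale (limma, adjusted p = 0.0364). The remaining called probe sets have no single gene in the annotation. Of these, 248622_at was higher by 0.96 ± 0.14 (852.7, 718.4 and 917.2 against 1939.9, 1479.5 and 1478.5; adjusted p = 0.037). Among the 3 that were lower, 258589_at differed by -1.06 ± 0.17 (372.0, 334.9 and 476.4 against 124.2, 158.4 and 286.8; adjusted p = 0.0499).

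**Figure D2:**
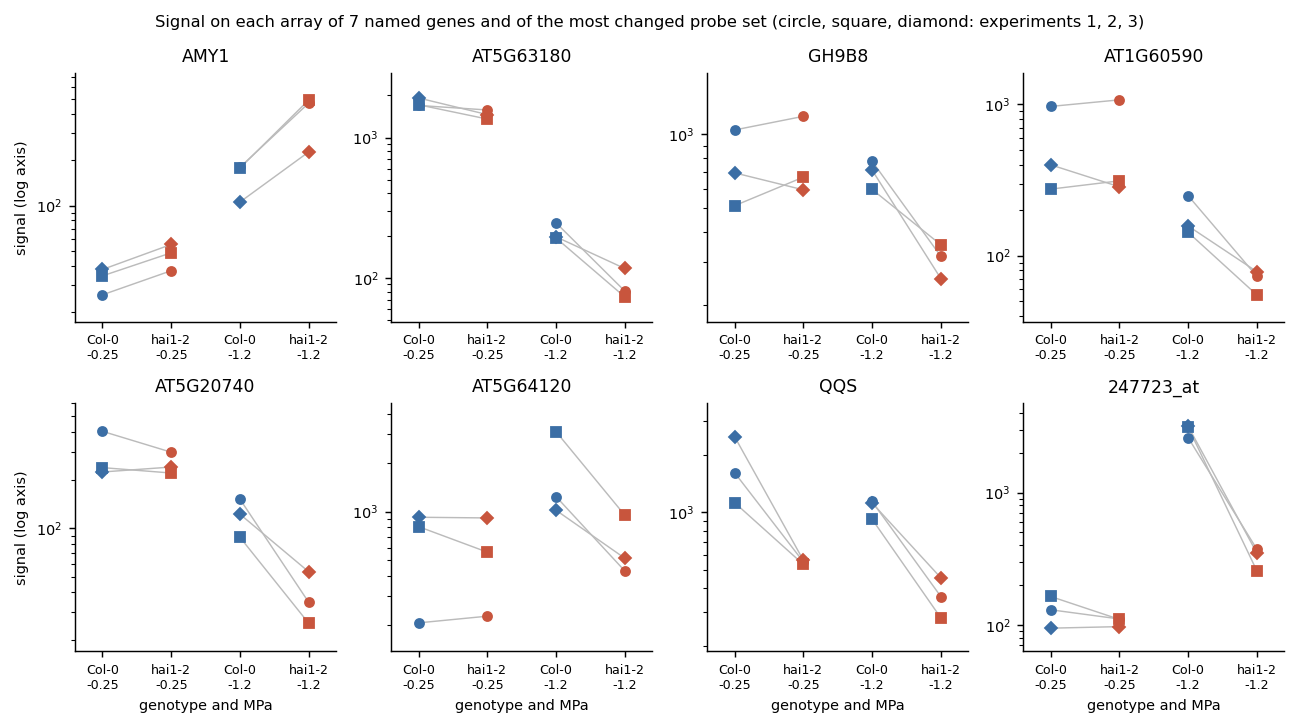
Signal (log axis) of the 7 called genes with a name and of the most changed probe set, which has none, on each of the 12 arrays, with Col-0 in blue and hai1-2 in red at -0.25 and -1.2 MPa. Marker shapes stand for experiments and grey lines join the arrays of 1 experiment. At -1.2 MPa the genotypes do not overlap in any panel, and at -0.25 MPa QQS lies lower in hai1-2 in all 3 experiments.

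Outside QQS, the called genes with a name had small differences on control plates, from -0.28 for AT5G63180 to 0.37 for AMY1, and none of these was called there. For AT5G64120 and GH9B8 the difference at -1.2 MPa exceeded that at -0.25 MPa by -1.25 and -1.24, and for AT1G60590 and AT5G20740 by -1.16 and -1.21, but no interaction of a named gene passed the test (limma, adjusted p of 0.309 or above). The levels on control plates gave a further difference between the genes. On control plates AT5G63180 had a mean signal of 1772 ± 122 for Col-0 and 1460 ± 109 for hai1-2 (SD, n = 3), and at -1.2 MPa the means were 212 ± 30.4 and 90.4 ± 23.3. For AT5G64120 the mean signal at -0.25 and -1.2 MPa was 645 ± 385 and 1787 ± 1147 for Col-0 and 568 ± 343 and 633 ± 279 for hai1-2. One other gene, AT2G19970, was called on control plates, at 1.44 ± 0.18 (adjusted p = 0.0229), and it stood at -0.05 at -1.2 MPa (chosen after its values were seen). Calls on control plates were 2 of 17059 (0.0117%), with 1046 (6.13%) at an unadjusted p under 0.05, and 19 (0.111%) were at least 2-fold higher and 16 (0.0938%) at least 2-fold lower.

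Below the threshold, 14 genes with positive and 9 with negative differences are named here. They had the largest test statistics among those that differed the same way in all 3 pairs without overlap. Their numbers were set by a limit on named genes in each direction, called ones included, and are not a result. Over all probe sets tested, 1113 (6.52%) were higher and 1294 (7.59%) lower by that rule of pairs and overlap. THI2.1, a thionin, an antimicrobial peptide induced by jasmonate, came closest to the threshold on the positive side. It gave 1841.0, 832.4 and 2134.1 in stressed Col-0 and 3862.9, 3185.5 and 3377.8 in stressed hai1-2. The difference was 1.21 ± 0.21 on the log2 scale (limma, adjusted p = 0.0604), and its signal on control plates was below 60 on every array.

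The LEA genes LTI30, LEA18 and AT2G23110 were among the 14. LTI30, a dehydrin that binds membranes, had 5435.0, 9544.2 and 9297.6 in Col-0 and 11893.8, 15218.2 and 14084.3 in hai1-2, a difference of 0.80 ± 0.14 (adjusted p = 0.0739). LEA18 had 452.4, 484.9 and 569.9 against 1064.6, 1528.0 and 1054.3, a difference of 1.23 ± 0.25 (adjusted p = 0.0987). In each of them the hai1-2 arrays lay above the Col-0 arrays, and in LTI30 experiment 1 was the lowest in both genotypes. On control plates LTI30 stood at 0.40 and LEA18 at 0.75, each higher in all 3 pairs, and AT2G23110 at -0.39. None was called there.

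The other genes with positive differences have varied roles. AT5G61590, which encodes DEWAX, an ERF transcription factor that represses cuticular wax synthesis, stood at 1.07 (adjusted p = 0.105). AT1G76590, which encodes a PLATZ family zinc-binding protein, stood at 0.96, and AT1G04560, which encodes a membrane protein of the AWPM-19 family, at 1.11. The glutaredoxin family gene AT5G18600 stood at 0.73. AT1G67920, AT2G28400, AT4G31830, AT5G05220, AT3G29120 and AT5G28920 lay between 0.75 and 1.52, and the last had a Col-0 signal of 3.3 to 34.4, near or below the constant of 16 that was added before the log. The annotation lists AT3G29120 as a pseudogene, and its probe set can bind transcripts of related genes. On control plates the differences of the 14 genes ran from -0.39 to 1.01, and none was called there. AT3G29120 was the highest, and AT4G31830 stood at 0.63 and AT2G28400 at 0.49. No interaction of the 14 was called (limma, adjusted p of 0.386 or above).

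On the negative side, AT4G24780 and AT3G53190, both of the pectin lyase-like superfamily, stood at -0.70 and -0.78 (limma, adjusted p = 0.0881 and 0.0939), and TBL36, of a family that acetylates wall polysaccharides, stood at -0.73 (adjusted p = 0.0805). The signal of AT4G24780 was 4403.4, 3607.5 and 3666.4 in Col-0 and 2780.5, 2285.9 and 2114.7 in hai1-2. The others encode the thaumatin-like protein ATLP-1 (-0.80), an aspartyl protease (AT5G07030, -0.87), a GDSL lipase (AT5G45670, -0.84), a subtilisin-like protease (AT4G20430, -0.89), a defensin-like peptide (AT2G43550, -0.96) and the cell wall protein ECS1 (-0.95). ECS1 had 6168.9, 4198.6 and 5237.4 in stressed Col-0 and 2062.8, 2868.5 and 3173.0 in stressed hai1-2, and lay between 19915.3 and 23686.2 on all 6 control arrays.

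**Figure D3:**
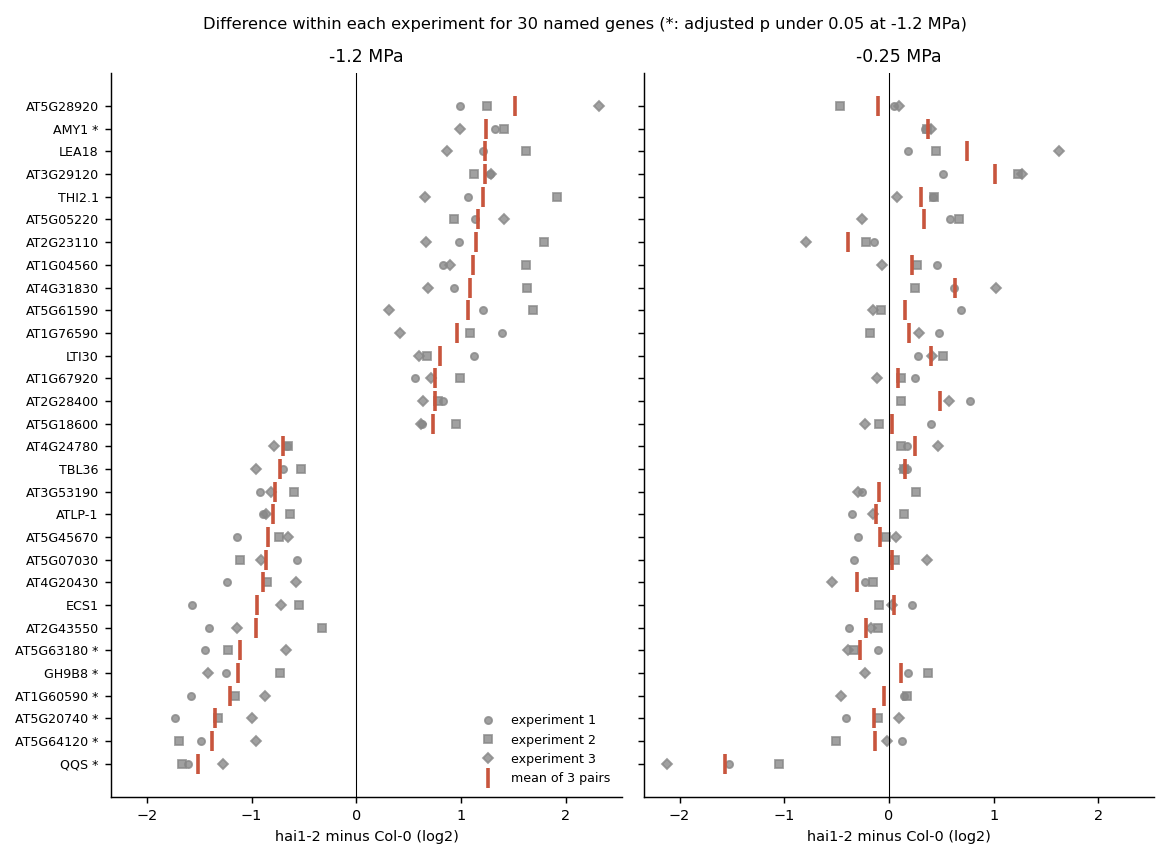
Difference between hai1-2 and Col-0 (horizontal axis, log2) in each of 3 experiments (grey markers) and their mean (red bar) for 30 named genes at -1.2 MPa (left) and -0.25 MPa (right). The 7 genes marked with a star had an adjusted p under 0.05 at -1.2 MPa. On control plates QQS stands near -1.57 too, and AT3G29120, which has no star, near 1.01.

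Gene lists were described by how many tested members lay in each direction and by their median difference. Only probe sets with a gene name could enter a list, so a list is not its whole family. Cell division had 7 for 104 loci in the reference, nuclear photosynthesis 15 for 119 and stress transcription factors 23 for 439. Over all probe sets tested 48.1% had a positive difference and the median was -0.01. Dehydrins and LEA proteins, which protect drying cells, had the highest median: 15 of 19 tested members had positive differences, with a median of 0.45 and a range of -0.21 to 1.23. Of these, 7 were higher in all 3 pairs without overlap and 0 lower, and none was called by limma, while 9 had an unadjusted p under 0.05, all of them positive. Over all probe sets tested, 6.52% were higher and 7.59% lower in all 3 pairs without overlap. An unadjusted p under 0.05 (limma) was found for 8.85%, with 3.72% higher. Of 53 loci in the reference, 35 had a named probe set and 19 passed the filter on low signals. The list's median was 0.73, 0.49 and 0.35 in the 3 experiments. On control plates it was 0.32, and whether the list differed more at -1.2 MPa than there was not tested.

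The members named next, other than COR47 and AT1G54410, were chosen after their values were seen. AT3G02480 gave 3415.5, 4950.9 and 5719.3 in stressed Col-0 and 7391.9, 6093.9 and 9563.5 in stressed hai1-2, a difference of 0.72 ± 0.22 (limma, adjusted p = 0.317). AT5G44310 stood at 0.69, with mean signals of 93.9 in Col-0 and 160 in hai1-2. AT3G15670 stood at 0.64, AT3G17520 at 0.64 and LEA4-5, which protects cells against drying, at 0.58. COR15A, a cold-induced protein of the chloroplast stroma, stood at 0.35, with overlap. COR47, a dehydrin among the brightest of the list, had 5812.7, 6157.0 and 8396.9 in Col-0 and 7655.4, 6100.6 and 7856.6 in hai1-2, so that the genotypes overlapped and differed by 0.10 ± 0.14 (adjusted p = 0.905). AT1G54410, a small dehydrin, stood at 0.11 and COR15B at -0.21. The members with large and small differences thus included genes that were bright in both genotypes.

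**Figure D4:**
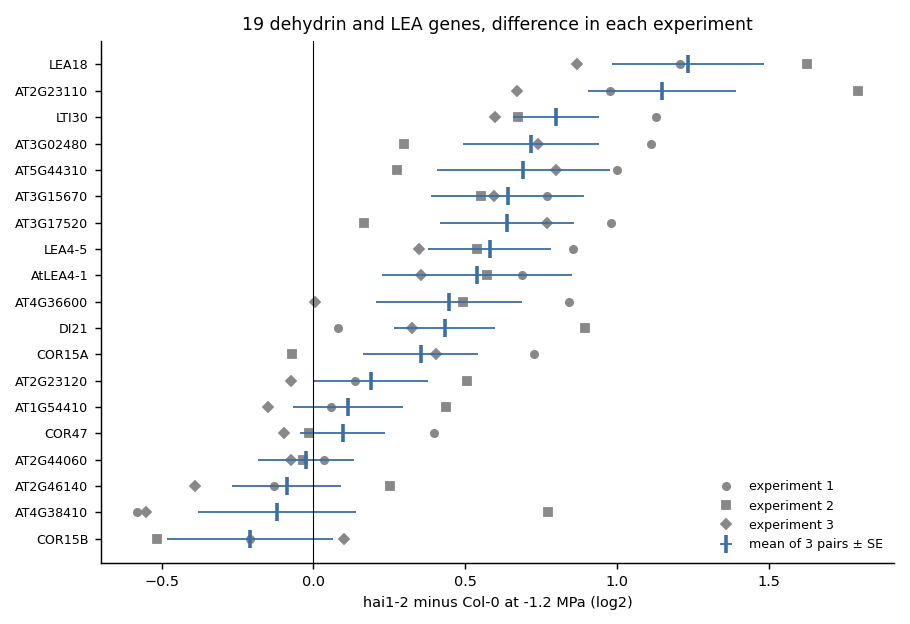
Difference between stressed hai1-2 and stressed Col-0 (horizontal axis, log2) for each of 19 dehydrin and LEA genes, in each experiment (grey markers) and as the mean of 3 pairs (blue). Blue bars are the moderated SE of the limma fit to stressed and control arrays together, not the spread among the 3 pairs. Means run from -0.21 for COR15B to 1.23 for LEA18, and none had an adjusted p under 0.05.

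Proline is a compatible solute that accumulates at low water potential. Of 10 loci of proline metabolism in the reference, 2 had a named probe set, and the others could not be examined. DELTA-OAT, the ornithine aminotransferase, stood at 0.43 ± 0.13, with 782.8, 699.3 and 744.6 in Col-0 and 995.0, 980.0 and 1035.2 in hai1-2 (limma, adjusted p = 0.292). All 3 hai1-2 arrays were above the Col-0 arrays. AT5G38710, a proline dehydrogenase that degrades proline, stood at -0.41 ± 0.22, with 94.9, 83.7 and 90.9 in Col-0 and 59.9, 75.7 and 56.2 in hai1-2 (adjusted p = 0.65). Neither passed the test.

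Lists of wall enzymes lay on the negative side. Of 7 tested GH9 endoglucanases (15 had a named probe set), 6 had negative differences, with a median of -0.46, and GH9B8 alone was called. GH9C2, with a carbohydrate-binding module, gave 2875.6, 2792.5 and 2257.5 in stressed Col-0 and 2137.8, 1378.5 and 1305.6 in stressed hai1-2, a difference of -0.74 ± 0.16 (limma, adjusted p = 0.105). GH9B13 stood at -0.55 (adjusted p = 0.212), and GH9A3 was the one positive member at 0.26. Without experiment 1 the median was -0.23.

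Expansins loosen walls without cutting them, and xyloglucan endotransglucosylases (XTHs) cut and rejoin xyloglucan. Of 21 tested, 14 had negative differences, with a median of -0.13. None was called by limma, and at an unadjusted p under 0.05 there were 1 positive and 4 negative members. Of all 21 tested members, 5 were lower in all 3 pairs without overlap, and 1 was higher. Over all probe sets tested these shares were 7.59% and 6.52%, while 3.72% were positive and 5.14% negative at an unadjusted p under 0.05 (limma). The list's median was -0.09, 0.02 and -0.27 in the 3 experiments. EXPA15, chosen after its values were seen, gave 2338.1, 2240.3 and 2541.2 in Col-0 and 1395.4, 1343.3 and 1276.2 in hai1-2, a difference of -0.82 ± 0.18 (limma, adjusted p = 0.11). EXPB3 stood at -0.77, EXPA8 (also chosen after its values were seen) at -0.63 and EXPA4 at -0.53. EXGT-A3, an XTH, had the highest difference of the list at 0.46 ± 0.13, with 2267.3, 2495.1 and 2423.8 in Col-0 and 3039.4, 3618.7 and 3261.5 in hai1-2.

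All 5 tested peroxidases had negative differences, with a median of -0.29, from -1.38 for AT5G64120 to -0.02. Prx37, a peroxidase of the vascular tissue, stood at -0.29 (adjusted p = 0.667). Genes of growing tissue were also on the negative side without a call: 6 of 6 cell division genes (median -0.22) and 5 of 5 beta-tubulins (median -0.20), the subunits of microtubules, with 1 member of each list at an unadjusted p under 0.05. Over all probe sets tested 8.85% had such a p (limma), with 5.14% lower. The replication gene PRL stood at -0.41 and the mitotic kinase AUR1 at -0.26, and TUB7 stood at -0.34, with 921.6, 927.1 and 954.6 in stressed Col-0 and 811.6, 664.1 and 737.3 in stressed hai1-2. Among 8 glucosinolate genes, 7 had negative differences (median -0.16), and 3 of these had an unadjusted p under 0.05. BCAT4, which starts methionine chain elongation for these defence compounds, gave 4901.3, 3558.4 and 2828.4 in Col-0 and 2997.0, 2574.1 and 1938.2 in hai1-2, a difference of -0.57 ± 0.13 (limma, adjusted p = 0.132). Each pair of arrays had the lower value in hai1-2, although the groups overlapped.

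Among 15 tested genes of sugar and starch, 9 had positive differences (median 0.14), and 1 was called in each direction, AMY1 and QQS. The sugar transporters SWEET1 and SWEET4, chosen after their values were seen, stood at 0.62 and 0.62, and SWEET11 at -0.14. DPE1, which rearranges the short glucans left by starch breakdown in the plastid, stood at 0.24. Among 11 genes of autophagy, the degradation of cell contents in the vacuole, 9 had positive differences (median 0.20, highest 0.33). None was called by limma and 0 had an unadjusted p under 0.05. APG8A gave 1091.6, 1237.7 and 1014.2 in Col-0 and 1339.6, 1377.0 and 1317.6 in hai1-2, a difference of 0.27 ± 0.15 (limma, adjusted p = 0.672).

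The lists described next had medians from -0.18 to 0.12. Those of expansins and XTHs, of glucosinolate genes and of sugar and starch genes, given above, were of similar size. Nuclear photosynthesis genes stood at -0.10 (10 of 15 negative), with 0 called and 0 at an unadjusted p under 0.05 (limma). LHCB4.1, an antenna protein of photosystem II, gave 14994.4, 13440.6 and 14020.2 in Col-0 and 12763.4, 13562.3 and 13373.3 in hai1-2. Flavonoid and anthocyanin enzymes had a median of 0.04 over 8 genes, and DFR, which commits flux to anthocyanins, stood at 0.19 ± 0.13, with 8707.6, 9874.1 and 10194.9 in Col-0 and 9406.1, 12095.5 and 11402.1 in hai1-2. Stress transcription factors (18 tested, median -0.01), aldehyde dehydrogenases (8, 0.02), UGT glycosyltransferases (38, 0.04), glutaredoxins (5, 0.04) and cytochrome P450s (13, -0.07) had no called member, and 1, 0, 8, 0 and 2 of them had an unadjusted p under 0.05 (limma). Jasmonate and wound response genes (6 tested, median 0.12), auxin response genes (7, 0.07), salicylic acid and disease resistance genes (8, -0.11), glutathione transferases (11, -0.08), IQD proteins (12, -0.08) and pectin enzymes named by symbol (4, -0.18) had 2, 1, 0, 3, 1 and 0. The share over all probe sets tested was 8.85%. The list of glutaredoxins did not include AT5G18600, the gene of that family that stood at 0.73 (limma, unadjusted p = 4.44e-04). Among 68 probe sets of chloroplast-encoded genes the median was -0.09 and 46 were negative. In experiments 1, 2 and 3 the median was -0.28, -0.07 and 0.10, so its sign was not shared. psbB, a core protein of photosystem II, was the lowest of these at -0.92 ± 0.66 (limma, adjusted p = 0.764; chosen after its values were seen), with 1064.0, 2759.0 and 751.9 in Col-0 and 1243.8, 909.4 and 273.2 in hai1-2.

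**Figure D5:**
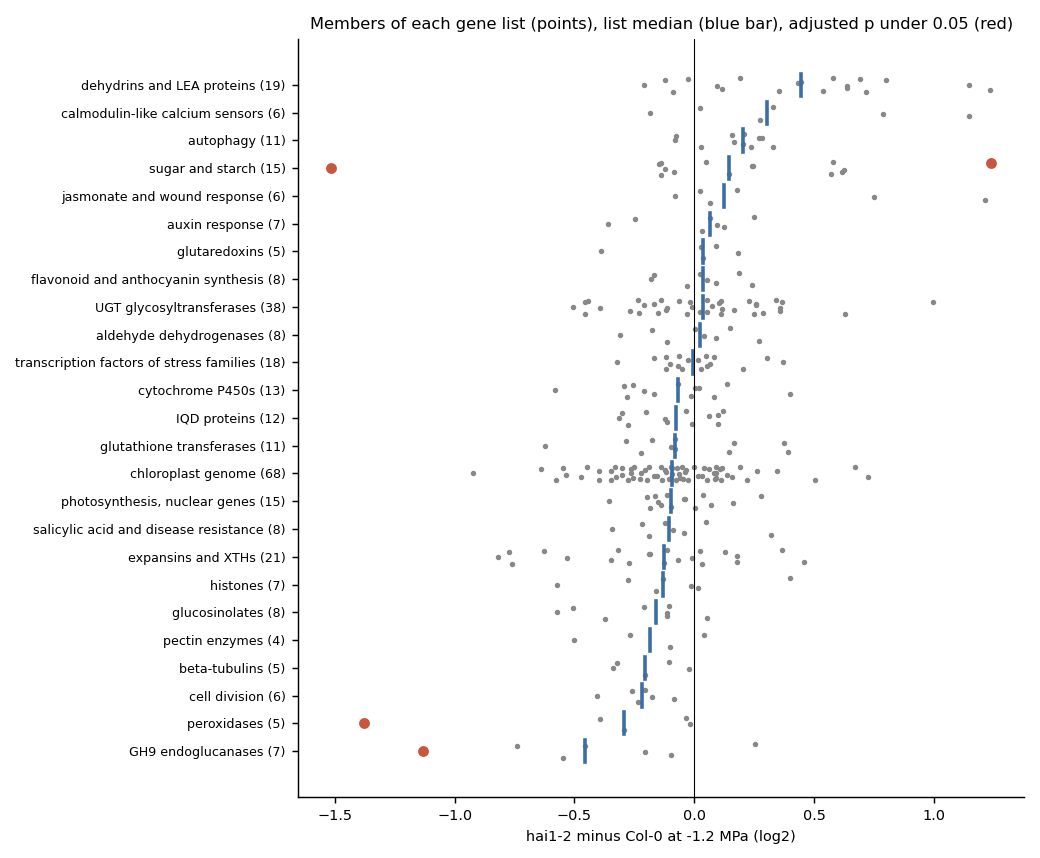
Difference between stressed hai1-2 and stressed Col-0 (horizontal axis, log2) for every tested member of each gene list with at least 4 tested members (points), with the list median (blue bar) and the number tested in parentheses. Medians run from -0.46 for GH9 endoglucanases to 0.45 for dehydrins and LEA proteins, and the 4 red points are QQS, AT5G64120, GH9B8 and AMY1.

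The calls of named genes depended on having all 3 pairs. Without experiment 1 or experiment 2 none of the 7 called genes with a name kept its call, and without experiment 3 AT5G64120 and AT5G63180 did. The unnamed probe set with the largest difference was called each time. Without the experiment as a block it was the one probe set called (0.00586%), and 953 (5.59%) had an unadjusted p under 0.05. All 7 named genes kept their direction in each of these fits. That outcome was fixed in advance, because all 3 pairs of each gene went one way. The fit without the block has the same mean difference.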

How the data were processed

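The authors deposited 1 signal intensity per probe set and array, made with MAS5 per the submitters' processing notes, with the version not given in the sources used here. The mean after leaving out 2% at each end was 500.0 on all arrays, so no further scaling was done. Weak MAS5 signals are noisy, which limits precision together with the number of arrays. Values were taken as log2(signal + 16), which understates changes of weak genes. The 64 control probe sets and the lower 25% by mean level (5687, mean log2 below 5.67) were left out.

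limma 3.58.1 in R 4.3.3 (data.table version 1.17.8) was fitted to all 12 arrays, with the experiment within a water potential as a block (4 residual and 8.79 prior degrees of freedom) and an intensity trend. Contrasts were two-sided and adjusted over all probe sets. The fit was tested on simulated data with known changes. The design text states that each experiment gave 1 sample per group. Deviations from group means of same-numbered stressed arrays correlated at 0.227 to 0.263, and of others at -0.136 to -0.104 (control plates: 0.128 to 0.517, and -0.422 to 0.164).

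Names came from the platform annotation updated through the TAIR10.1 genes, with 1 gene for 13513 probe sets, several for 503 and none for 8730 (9396, 355 and 7308 of those tested). Lists of clade A phosphatases and other ABA signalling genes, lipid transfer proteins and receptor-like kinases had no named probe set and were not examined. Promoters and other sequences were not analysed here.

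The members, lists and tests were chosen with earlier results of these data known. Lists were extended once the annotation was seen, and a chitinase symbol was removed from the flavonoid list after its values were seen. Genes named by rule were up to 15 in each direction. Called ones came first by size, then uncalled ones by test statistic (all pairs one way, no overlap). Of each list, up to 6 called and 4 bright uncalled members were named, with all tested members of the proline list. Up to 2 called unnamed probe sets per direction were also given. Alternatives changed the constant, filter, normalization, variance model, array weights, block, arrays fitted and probe sets per gene, set a fold minimum, and left out replicates.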

Additional observations from a re-analysis of the deposited data

Results flagged for a closer look

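For the unnamed probe set with the largest difference, the genotype difference at -1.2 MPa minus that at -0.25 MPa was -2.91 on the log2 scale. It stands out because the 2 water potentials gave different genotype differences by a test of the difference itself (limma interaction, adjusted p = 5.21e-04), and the probe set was lower in stressed hai1-2 in 3 of 3 pairs. Whether this probe set measures the mutated gene itself was not tested. Groups of 3 arrays are too small for a check of single outlying arrays.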

How the results depend on the processing

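The call of the unnamed probe set with the largest difference held in all 22 alternatives in which it could be tested (-3.33 to -2.94 on the log2 scale); the 1 probe set per gene setting, limited to named genes, could not test it and called 0 interactions. The 7 named genes kept their direction under every alternative, but the calls did not hold under all. Where pairs or arrays were left out the direction could not change, because all pairs of each gene went one way without overlap. At -1.2 MPa, against 2 higher and 9 lower probe sets, limma called 0 and 1 without a replicate block, 0 and 3 with a block shared by both water potentials, 53 and 55 with a block and only the 6 arrays compared, and 50 and 79 with array weights; the cause was not tested. It called 0 and 4 with no filter, 0 and 1 with no intensity trend, 18 and 12 with 64 added, 3 and 8 with 1 added, 1 and 7 with the lower 50% removed, 1 and 6 with 1 probe set per gene, and 1 and 9 with a 2-fold minimum. Leaving out 1 pair gave 0 higher and 1 to 3 lower, and leaving out 1 array without the block 0 higher and 1 to 2 lower. On control plates 0 and 0 were called without the block and 1 and 2 with 1 added. Quantile normalization, median centring and robust moderation moved no count by over 1.5 times. Among genes not called, leaving out 1 pair moved COR47 between -0.055 and 0.19, AT1G54410 between -0.046 and 0.25 and AT2G19970 between -0.19 and 0.14. Leaving out 1 array without the block, COR47 lay between -0.0063 and 0.26, and AT2G19970 between -0.33 and 0.38, with 0.047 and 0.082 among its values. The median of the LEA list stayed between 0.27 and 0.57, that of GH9 endoglucanases between -0.64 and -0.23 and that of chloroplast genes between -0.37 and 0.10.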

Other observations

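Some members of lists not described above moved unevenly between experiments. CML38, a calmodulin-like calcium sensor, had signals of 104.2, 13.1 and 57.1 in stressed Col-0 and 336.0, 107.7 and 47.9 in stressed hai1-2, so that it was the brighter of the pair in experiments 1 and 2 and the dimmer in experiment 3 (difference 1.15 ± 0.35, limma adjusted p = 0.304). CML23, chosen after its values were seen, showed the same order, with 60.1, 45.9 and 68.4 against 158.3, 142.4 and 57.8. Of 6 calmodulin-like genes tested, 5 had positive differences, with a median of 0.30, and none was called.

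Among histone genes, HTR12, the centromeric histone H3, stood at -0.57 and the drought-induced linker histone HIS1-3 at 0.40. HTR12 (chosen after its values were seen) gave 109.8, 86.7 and 89.4 in stressed Col-0 and 62.0, 64.1 and 50.1 in stressed hai1-2, and HIS1-3 gave 4257.4, 3793.7 and 4428.8 against 4716.7, 6472.9 and 5407.0. The genotypes did not overlap in either gene, and neither was called (limma, adjusted p = 0.392 and 0.422). GSTU20, a glutathione transferase, stood at -0.62 ± 0.16 (adjusted p = 0.195), with 4603.8, 3543.3 and 3531.2 in Col-0 and 2447.9, 2867.6 and 2232.4 in hai1-2, the lowest value of 11 tested members of its list.

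The chloroplast transcript rpl32 stood at 0.72 ± 0.22, against -0.53 ± 0.17 for atpH and -0.40 ± 0.18 for rbcL (limma, adjusted p = 0.315, 0.348 and 0.548; chosen after their values were seen). The signal of rpl32 was 3930.0, 2699.3 and 2781.7 in Col-0 and 4418.3, 5460.6 and 5543.7 in hai1-2, without overlap, while atpH and rbcL overlapped.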
